A study of Mus musculus with 6 samples.

Results

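The liver makes most of the complement and clotting proteins of blood plasma, and 38 genes for such proteins were followed here in mouse liver after a lentiviral vector. They were chosen by name as coagulation and complement genes of the hepatocyte, and all 38 were found by symbol among the 8390 genes listed. By role they comprise 3 fibrinogen chains, 10 clotting and contact factors, 2 genes of fibrinolysis, 6 inhibitors, and 17 complement genes: 4 of the lectin pathway, 4 of the C3 convertases, 6 of the terminal pathway and 3 regulators. RNA from whole liver of C57BL/6 mice was sequenced in 6 libraries. The LV group holds 3 liver samples taken 4 h after an intravenous dose of 3e8 transducing units of such a vector, which enters cells like a retrovirus but cannot multiply. The comparison group holds 3 liver samples labelled untreated, and no label names a mock injection, so effects of the vector and of the injection itself cannot be told apart. The labels used here give neither the cargo of the vector nor the age and sex of the mice.

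Clotting proceeds through a chain of proteases that ends with thrombin cutting fibrinogen into fibrin. Complement starts from the classical, lectin or alternative arm, forms a convertase that cleaves C3, and ends with pore formation by the terminal components. Several of these proteins are acute-phase reactants, whose hepatic transcription is raised by interleukin-6 and interleukin-1 through STAT3, C/EBP and NF-kB factors, while some complement genes also respond to interferon.

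The deposited values are whole numbers, apparently scaled by the authors for library size and transcript length. They sum to between 497295 and 526009 per library, and the read depth is unknown. A fold change is the difference of mean log2(value + 1), LV minus untreated, from limma fitted to 8386 genes. It is given ± SE, with n = 3 per group unless libraries are said to be left out. Adjusted p-values are Benjamini-Hochberg values over all genes of the fit. Beyond the titles nothing says how replicates were obtained, so each p-value reflects only the spread among these 6 samples. The liver label was matched by its markers: all 8 listed hepatocyte markers were measured, with a summed value of 71944 to 84310 in LV and 78117 to 102020 in untreated libraries. Of 12 listed Kupffer cell markers 10 were measured, summing to 135 to 315 in LV and 248 to 368 in untreated libraries, and the 10 endothelial markers summed to 95 to 166 and 170 to 194. The 10 stellate cell markers summed to 100 to 160 in LV and 110 to 154 in untreated libraries. None of the 8 listed neutrophil and monocyte markers or of the 8 lymphocyte markers is among the genes listed. In whole liver, a change in the number of cells of a type and a change of RNA per cell cannot be told apart.

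LV replicate 3 and untreated replicate 2 stood apart from the other 4 libraries in most of 10 measured sex-biased liver genes: both were above the other 4 in 5 of 5 male-biased genes and below them in 3 of 5 female-biased genes. Elovl3, a male-biased fatty acid elongase, had 169 and 159 in them and 0 to 4 elsewhere, and Cyp2b9, a female-biased P450, had 8 and 5 against 121 to 157. The female-biased genes Cyp2a4 and Cyp3a41a did not follow this split, and were highest in untreated replicate 3, at 679 and 27 against 88 to 214 and 3 to 5. The Y-linked gene Ddx3y had 10 to 14 in 5 libraries, among them LV replicates 1 and 2, and is listed at 0 in untreated replicate 3, so the split in Elovl3 and Cyp2b9 was not that of the Y-linked gene. For some of the results that rest on these libraries, values without them are given below as well.

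No gene of the set passed the threshold of an adjusted p under 0.05 in limma, in either direction. Of all genes tested, 3.76% were called higher in LV and 0.87% lower. At an unadjusted p under 0.05, 7 of the 38 were higher (18.4%, against 9.21% of all genes) and 1 was lower (2.63%, against 10.3%). The 7 were the 3 fibrinogen chains, C2, C4b, Cfb and Serping1, and the 1 was F13b. In 9 genes every LV value lay above every untreated value (23.7%, against 8.65% of all genes), which adds Serpinf2 and C4bp to those 7, and only in F13b did every LV value lie below (2.63%, against 11%). The median log2 fold change was 0.04 over the 38 genes and -0.07 over all genes tested. By role the median was 0.84 for fibrinogen, 0.56 for the convertase genes, 0.13 for the complement regulators, 0.07 for fibrinolysis, 0.05 for the inhibitors, -0.08 for the clotting factors and -0.16 for the terminal pathway, and close to 0 for the lectin pathway. The 95% interval of the fold change lay within a log2 change of 1 in either direction for 30 of the 38. It did so for 6731 of the 8386 genes tested, a similar share.

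**Figure D1:**
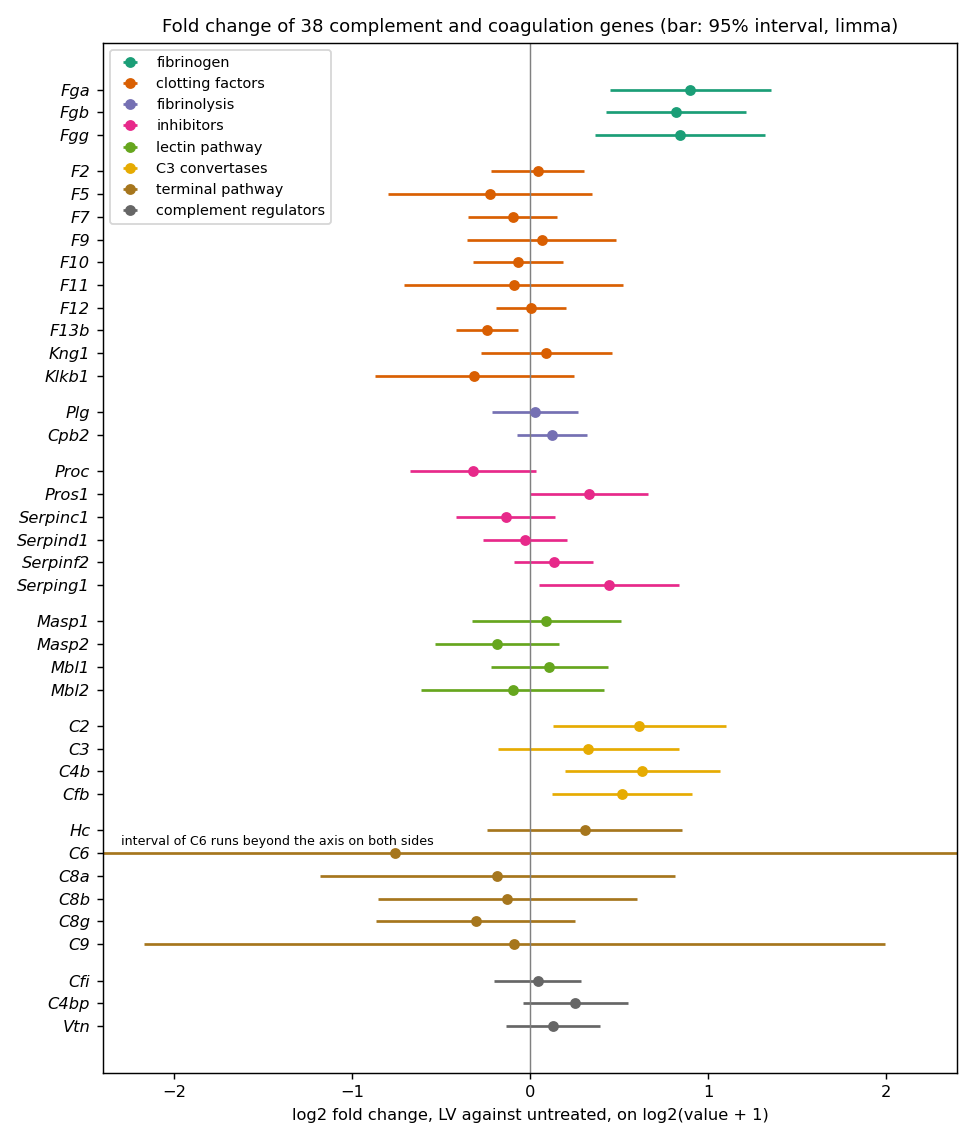
Log2 fold change (x axis, LV against untreated on log2(value + 1)) with the 95% interval from limma for each of the 38 genes (y axis), coloured by role, n = 3 per group. The fibrinogen chains lie furthest to the right at 0.82 to 0.90, the clotting factors lie between -0.31 and 0.09, and the interval of C6 reaches from -5.32 to 3.79, beyond the axis.

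Fibrinogen had the highest fold changes of the set. Fga, Fgb and Fgg encode the alpha, beta and gamma chains, which assemble in the hepatocyte into one secreted hexamer, and the genes are immediate neighbours in the order Fgg, Fga, Fgb among the coding genes of the RefSeq annotation of GRCm38.p6. The 250 bases before each RefSeq start are printed because these neighbours had the highest fold changes of the set. This choice was made after their values were seen. Capitals mark matches to the interleukin-6 response element core CTGGGAA or to the STAT element TTCNNNGAA, searched on both strands. The sequences are those of RefSeq on GRCm38.p6, each 5′ to 3′ on the strand of its gene: Fga at chr3:83025903-83026152 on the plus strand, Fgb at chr3:83049864-83050113 on the minus strand and Fgg at chr3:83007474-83007723 on the plus strand.
Fga: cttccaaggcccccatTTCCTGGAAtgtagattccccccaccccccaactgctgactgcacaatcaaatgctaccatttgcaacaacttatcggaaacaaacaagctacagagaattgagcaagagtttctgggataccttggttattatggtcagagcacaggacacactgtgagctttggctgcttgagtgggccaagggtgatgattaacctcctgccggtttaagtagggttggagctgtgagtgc
Fgb: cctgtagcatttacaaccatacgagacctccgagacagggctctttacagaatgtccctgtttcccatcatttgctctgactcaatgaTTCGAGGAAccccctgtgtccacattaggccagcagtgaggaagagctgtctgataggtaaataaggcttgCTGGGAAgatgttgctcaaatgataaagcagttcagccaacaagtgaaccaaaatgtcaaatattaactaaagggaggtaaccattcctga
Fgg: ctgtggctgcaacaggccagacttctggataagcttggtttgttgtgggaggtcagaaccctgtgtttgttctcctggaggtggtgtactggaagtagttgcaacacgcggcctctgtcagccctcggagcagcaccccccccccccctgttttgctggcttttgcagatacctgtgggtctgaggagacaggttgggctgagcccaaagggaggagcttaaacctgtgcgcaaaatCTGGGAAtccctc
The Fgb stretch holds CTGGGAA with its first base 91 bases before the start and TTCGAGGAA 162 bases before it. Fgg holds CTGGGAA 13 bases before the start, and Fga holds TTCCTGGAA 234 bases before it. Such letters are common. CTGGGAA occurs in 9.1% of the 32851 stretches of this length in the table and TTCNNNGAA in 7.02%. Of the 29 genes of the set that have an entry, 4 held the first (Fgb, Fgg, F9 and Masp2) and 6 held the second (Fga, Fgb, F9, Masp2, C8a and Pros1). The interferon-stimulated response element, searched as a pair of GAAA repeats with any 2 bases between them, was matched in 0 of the 29 and in 2.98% of all. A match describes the letters only, and no match says nothing of a factor.

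Fga was 4402, 3407 and 2932 in LV replicates 1, 2 and 3 and 1962, 1743 and 1980 in untreated replicates 1, 2 and 3. The lowest LV value was thus well above the highest untreated one, and the mean was 1.89 times the untreated mean (log2 fold change 0.90 ± 0.18, limma adjusted p = 0.0603). Fgb was 7251, 6098 and 5440 with the vector and 3656, 3236 and 3701 without it (0.82 ± 0.16, limma adjusted p = 0.0533). Fgg was 5934, 4108 and 4085 with the vector and 2362, 2686 and 2730 without it (0.84 ± 0.19, limma adjusted p = 0.0821). LV replicate 1 was the highest for each chain and LV replicate 3 the lowest, and the groups did not overlap for any of the 3. Together the chains made up 3.51%, 2.73% and 2.47% of the summed values in LV replicates 1, 2 and 3, and 1.54% to 1.60% in the untreated libraries. The chains kept similar proportions: on the deposited scale, which appears to be per length, Fgb was 1.65 to 1.86 times Fga in LV and 1.86 to 1.87 times in untreated libraries, with the lowest ratio in LV replicate 1. Fgg was 1.21 to 1.39 times Fga in LV and 1.20 to 1.54 times in untreated libraries. The adjusted p of Fgb was 0.0471 and that of Fga 0.0477 without LV replicate 3, and both missed the threshold when any other single library was left out (up to 0.178 and 0.192). With a score of 10 sex-biased genes in each library, male-biased less female-biased, as a covariate that was chosen after seeing the data, Fgb had an adjusted p of 0.0297 and Fga of 0.0375. The score was -3.37 and -2.81 in LV replicates 1 and 2 and -1.61 and -2.94 in untreated replicates 1 and 3. Slco1a1, a male-biased gene of the score, had 12 and 11 in the former and 75 and 61 in the latter. Whether the score holds part of the group difference was not tested. With LV replicate 3 and untreated replicate 2 both left out, the fold changes of Fgb and Fga were 0.85 and 0.97 (limma adjusted p = 0.0906 and 0.117). Scaling mattered too. With quantile normalization the fold changes of Fga, Fgb and Fgg fell to 0.73, 0.57 and 0.61 (limma adjusted p = 0.136, 0.243 and 0.131). With median of ratios scaling they were 0.95, 0.87 and 0.89 (limma adjusted p = 0.0511, 0.0611 and 0.0656).

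**Figure D2:**
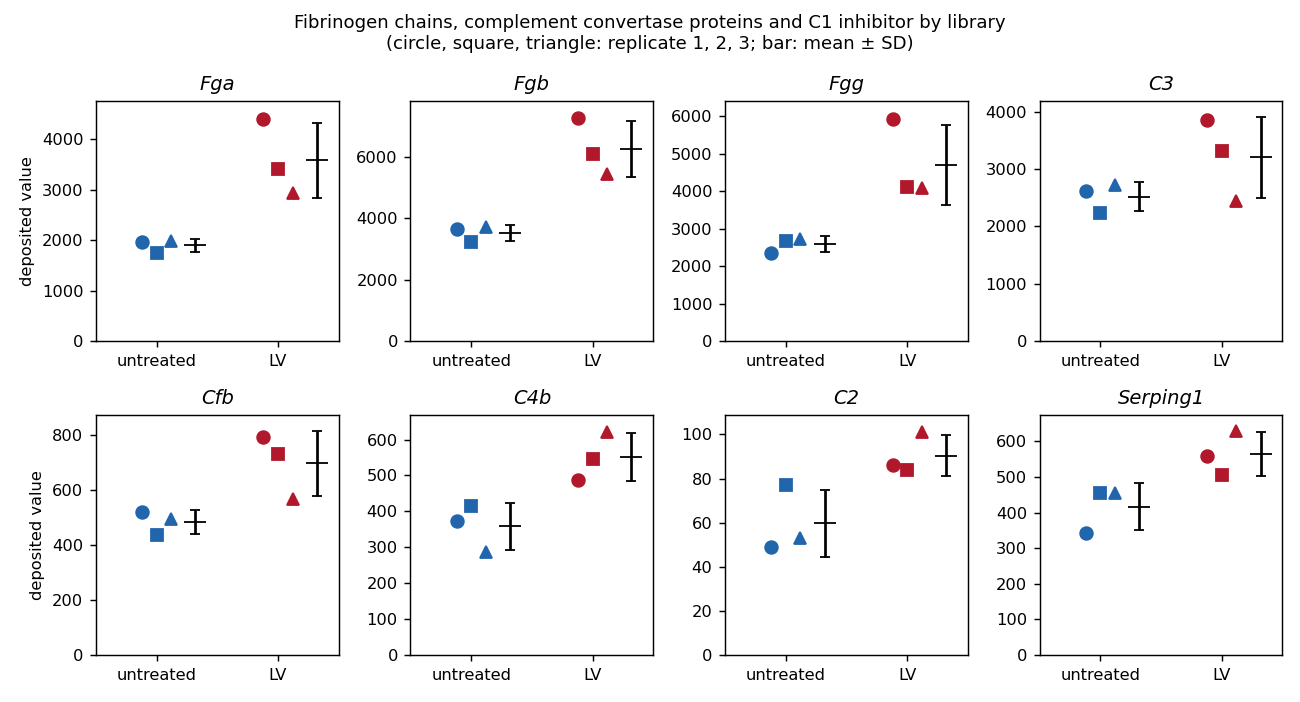
Deposited value (y axis, from 0) of the fibrinogen chains, C3, Cfb, C4b, C2 and Serping1 in each untreated (blue) and LV (red) library, with the mean ± SD of 3 beside the points. The groups are separate in every panel but that of C3, where LV replicate 3 (2450) lies among the untreated libraries (2228 to 2721).

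The clotting and contact factors showed no comparable difference. Of the 10 genes, 4 had a positive and 6 a negative fold change, between -0.31 and 0.09. For each of them the 95% interval lay within a log2 change of 1 in either direction, as for 6731 of the 8386 genes tested. F2 (prothrombin) had 1067 to 1132 with the vector and 971 to 1140 without it, and its fold change of 0.04 turned to -0.03 with quantile normalization. F7, which starts clotting together with tissue factor, had 106, 131 and 124 with the vector and 130, 127 and 128 without it (-0.10 ± 0.10, 95% interval -0.35 to 0.15). Its genomic neighbour F10, the protease that activates prothrombin, had 353 to 412 and 368 to 417. F12, which starts the contact pathway, had 282 to 307 and 286 to 309, with a fold change of 0.00 (interval -0.19 to 0.20) that was -0.05 with quantile normalization. F9, the X-linked factor that activates F10, had 45 to 61 with the vector and 41 to 55 without it. Kng1, the kininogen that carries bradykinin, had 921 to 1200 and 887 to 1108, and it has a close paralog, Kng2, with which reads could be shared.

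F13b, the carrier subunit of the fibrin-crosslinking factor XIII, was the only gene of the set whose LV values all lay below the untreated ones. It had 78, 77 and 84 with the vector and 96, 94 and 93 without it (log2 fold change -0.24 ± 0.07, limma adjusted p = 0.143). F5, the cofactor of F10, had 69, 87 and 121 with the vector and 97, 123 and 98 without it. F11, which activates F9, had 77, 68 and 119 with the vector and 85, 110 and 81 without it. Klkb1, prekallikrein, is the neighbour and close relative of F11 and had 68, 61 and 103 with the vector and 83, 107 and 93 without it. In F5, F11 and Klkb1 the highest LV value was that of replicate 3 and the highest untreated value that of replicate 2, the libraries with high Elovl3. Without both, their fold changes were -0.33, -0.19 and -0.44, against -0.23, -0.09 and -0.31 with all libraries, and none passed (adjusted p = 0.335, 0.350 and 0.179).

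Fibrinolysis genes lay close to 0. Plg, the precursor of the fibrin-degrading protease plasmin, had 1184 to 1342 with the vector and 1182 to 1245 without it (0.03 ± 0.10, and -0.07 with quantile normalization). Cpb2, a carboxypeptidase that slows fibrin breakdown, had 188 to 195 with the vector and 167 to 189 without it (0.12 ± 0.08, adjusted p = 0.446 in limma). The smallest LV value of Cpb2 was just below the largest untreated one.

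Among the 6 inhibitors the fold changes ranged from -0.32 to 0.44, and 0 were called. Serping1, the C1 inhibitor, which blocks both the first complement proteases and kallikrein, was the highest. It had 558, 506 and 629 with the vector and 342, 454 and 455 without it (0.44 ± 0.16, limma adjusted p = 0.209), with no overlap. Proc, protein C, which inactivates F5 after activation by thrombin, was the lowest. It had 350, 391 and 482 with the vector and 521, 472 and 523 without it (-0.32 ± 0.14, adjusted p = 0.287), and LV replicate 3 lay above untreated replicate 2. Its cofactor Pros1 had 25, 21 and 25 with the vector and 19, 21 and 16 without it (0.33 ± 0.13, adjusted p = 0.256), so the protease and the cofactor lay on opposite sides of 0. Serpinc1, antithrombin, had 1160 to 1297 and 1243 to 1477 (-0.14 ± 0.11), and Serpind1, heparin cofactor II, had 176 to 194 and 176 to 207 (-0.03 ± 0.09, and 0.02 with median of ratios scaling). Serpinf2, the plasmin inhibitor, had 626 to 671 with the vector and 546 to 619 without it, which did not overlap but differed by 0.13 ± 0.09 only.

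Genes of the C3 convertases had the second highest median fold change by role: all 4 were above 0, with a median of 0.56, and 3 of the 4 had LV values all above the untreated ones, as 8.65% of all genes tested did. None of the 4 was called. C2 and C4b build the convertase of the classical and lectin arms, and Cfb builds that of the alternative arm. C2 and Cfb are immediate neighbours among the coding genes of the RefSeq annotation. C2 had 86, 84 and 101 with the vector and 49, 77 and 53 without it (0.61 ± 0.19, limma adjusted p = 0.171). Without LV replicate 3 and untreated replicate 2 its adjusted p was 0.0446, with a fold change of 0.73. Cfb had 792, 730 and 566 with the vector and 519, 435 and 495 without it (0.52 ± 0.16, adjusted p = 0.159), with the smallest gap to the untreated values in LV replicate 3. C4b had 487, 547 and 621 with the vector and 374, 414 and 287 without it (0.63 ± 0.17, adjusted p = 0.129). Its near-identical neighbour C4a is listed at 0 to 6 in these libraries, and how reads were divided between the pair is not known.

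C3, the protein on which all arms converge, was the most abundant complement gene on the deposited per-length scale. It had 3846, 3309 and 2450 with the vector and 2610, 2228 and 2721 without it (0.33 ± 0.20, limma adjusted p = 0.431). LV replicate 1 and 2 were above all untreated libraries and LV replicate 3 was not. The lowest value of each group belongs to LV replicate 3 and to untreated replicate 2, whereas for C2 these libraries held the highest value of each group. Without both libraries the fold change of C3 was 0.42 ± 0.11 (limma adjusted p = 0.192).

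**Figure D3:**
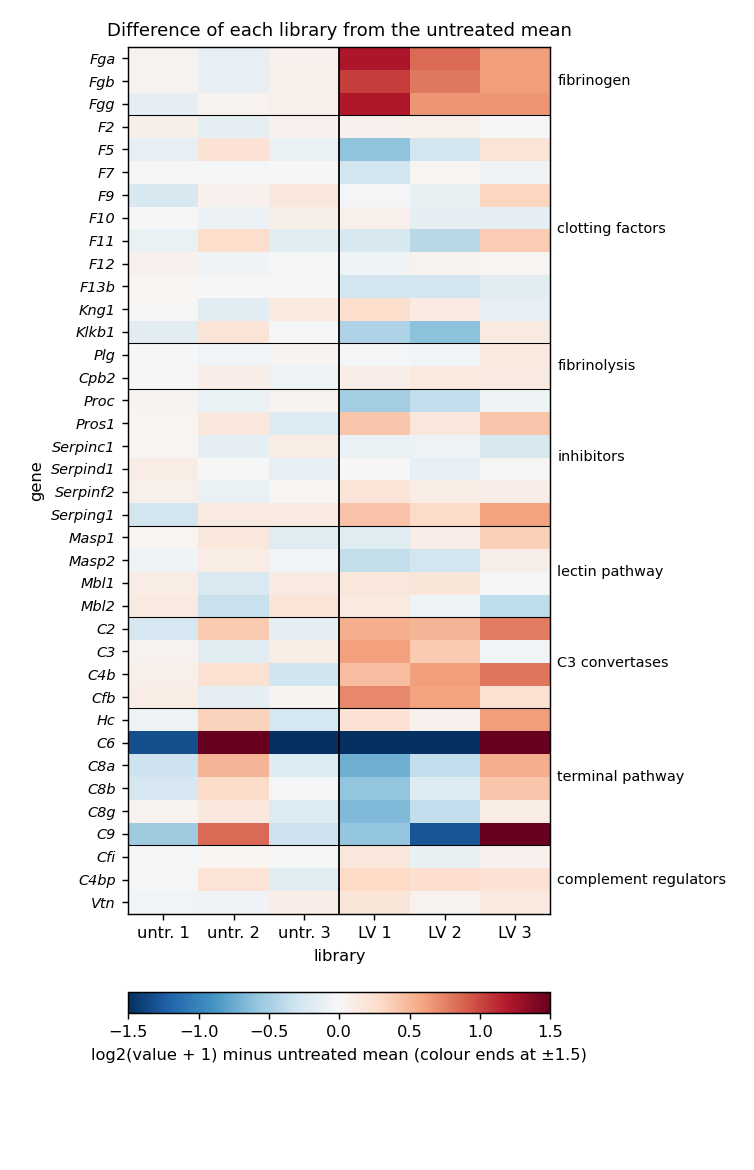
Log2(value + 1) of each gene (rows, grouped by role) in each library (columns), as the difference from the mean of the 3 untreated libraries, with colours that end at ±1.5. The fibrinogen rows are red in all 3 LV columns, and the terminal pathway rows are red in untreated replicate 2 and LV replicate 3.

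The lectin pathway, in which mannose-binding lectins recognise sugars on microbes and activate the MASP proteases, lay around 0, with 2 positive and 2 negative fold changes. Mbl1 had 232, 235 and 203 with the vector and 223, 176 and 225 without it, and Mbl2 had 412, 355 and 284 with the vector and 407, 295 and 424 without it. Both lectins were lower in LV replicate 3 and untreated replicate 2 than in any other library. The proteases had the opposite order. Masp1, whose gene also yields further splice products, had 64, 78 and 93 with the vector and 74, 81 and 64 without it, and Masp2, which cleaves C4 and C2, had 85, 90 and 116 with the vector and 105, 118 and 106 without it. None of the 4 passed the threshold, with adjusted p of 0.513 to 0.824 in limma.

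No terminal pathway gene separated the groups, and for each the highest value of either group belonged to LV replicate 3 or untreated replicate 2. C6, the C8 chains and C9 join C5, encoded by Hc, in the membrane attack complex, and serum levels of terminal components are known to be higher in male than in female mice. No label gives the sex of these mice, and a relation of sex to these values was not tested. C6 had 2, 2 and 75 with the vector and 5, 110 and 4 without it. The values of 75 and 110 belong to LV replicate 3 and untreated replicate 2, and the other 4 libraries are near the bottom of the scale. C9, which forms the pore, had 69, 42 and 315 with the vector and 71, 188 and 83 without it. C8a had 112, 145 and 274 with the vector and 151, 267 and 163 without it. Its neighbour C8b had 129, 169 and 259 with the vector and 163, 238 and 190 without it. In C9, C8a and C8b the same libraries were on top, with LV replicate 3 the highest of all 6. C8g, the third chain of C8, had 154, 189 and 264 with the vector and 253, 273 and 211 without it. Hc had 187, 168 and 248 with the vector and 152, 203 and 133 without it, and it was the only terminal gene with a positive fold change (0.31 ± 0.22).

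In all 6 terminal genes LV replicate 3 and untreated replicate 2 were both above the other 4 libraries, as Elovl3 was. The same held for 11 of the 38 genes (28.9%, against 11% of all genes tested): the 6 terminal genes, F5, F11, Klkb1, Masp1 and Masp2. Both libraries were below the other 4 in 6 genes (15.8%, against 5.74% of all genes): F2, Kng1, Serpinc1, Mbl1, Mbl2 and C3. The score of sex-biased genes described above was also used as a covariate for the terminal genes. The LV fold change was then -0.52 ± 0.21 for C6, 0.01 ± 0.35 for C9, -0.14 ± 0.13 for C8a and -0.09 ± 0.15 for C8b. It was -0.28 ± 0.12 for C8g and 0.33 ± 0.09 for Hc, and none passed (limma adjusted p = 0.116 to 0.998). That covariate was chosen after seeing the data, and the effect of the score itself on these values was not tested. It includes Slco1a1, which was lower in LV replicates 1 and 2 than in any untreated library.

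With all libraries, none of the terminal genes passed in limma. The fold change of C6 was -0.76 ± 1.82 and that of C9 was -0.09 ± 0.83, with intervals that include large changes in both directions. Without LV replicate 3 and untreated replicate 2, C6 compared 2 and 2 with 5 and 4 (-0.87 ± 0.11, adjusted p = 0.0834), C9 gave -0.50 ± 0.32 (adjusted p = 0.466) and C8g -0.44 ± 0.17 (adjusted p = 0.291). The libraries left out, side by side as LV against untreated, had 75 and 110 for C6, 315 and 188 for C9, 264 and 273 for C8g, and 248 and 203 for Hc. C9 was thus higher in the LV library of that pair, and lower on average in the LV libraries of the other 4.

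**Figure D4:**
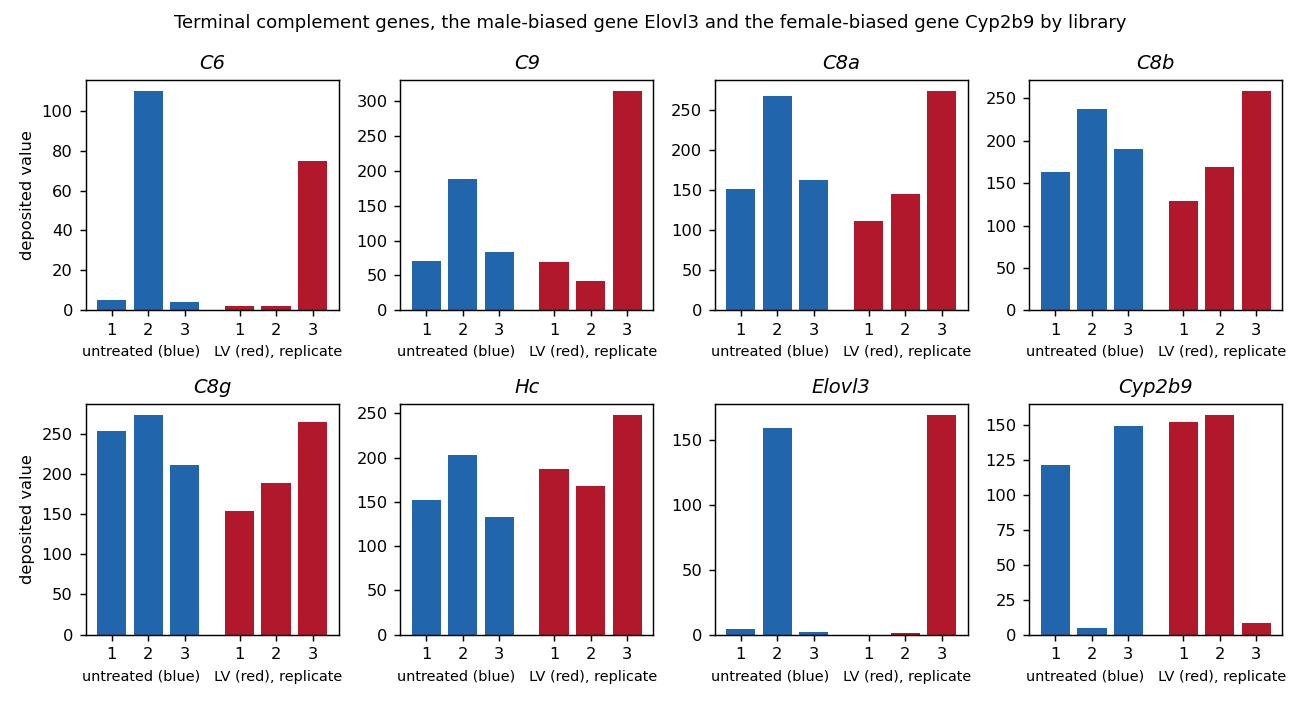
Deposited value (y axis, from 0) of the 6 terminal complement genes and of the sex-biased genes Elovl3 and Cyp2b9 in each library, with untreated in blue and LV in red and replicates 1 to 3 on the x axis. Bars of untreated replicate 2 and LV replicate 3 are the tallest of their group in the 6 complement panels and in that of Elovl3, and the lowest in that of Cyp2b9.

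The 3 complement regulators had positive fold changes of 0.04 to 0.25, and 0 were called. C4bp, which disables the C4b convertase, had 334, 322 and 315 with the vector and 267, 312 and 239 without it (0.25 ± 0.12, limma adjusted p = 0.302), so the groups did not overlap but were 3 apart at their closest. Vtn, vitronectin, which blocks insertion of terminal complexes into membranes, had 1946 to 2139 with the vector and 1809 to 2019 without it (0.13 ± 0.10). Cfi, the protease that cleaves C3b and C4b, had 268 to 326 and 286 to 296 (0.04 ± 0.10).

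Among other genes of the pathways, taken from lists written with earlier results of these data known, 1 passed. Over all genes tested, 9.21% were higher and 10.3% lower at an unadjusted p under 0.05, and 3.76% were called higher and 0.87% lower. Of 41 further complement genes 21 were measured and 0 were called in limma, with 1 higher and 3 lower at an unadjusted p under 0.05 and a median fold change of -0.16. Of 43 further coagulation genes 28 were measured and 27 tested, with 1 higher and 0 lower (5 and 1 at an unadjusted p under 0.05) and a median of -0.03. The call was Serpina10, the protein Z-dependent inhibitor of activated F10. It rose from 178, 164 and 159 in untreated livers to 452, 440 and 305 in LV (1.23 ± 0.17, limma adjusted p = 0.0217). The call was lost on leaving out any 1 library (adjusted p = 0.0832 to 0.112) other than LV replicate 3 (0.00591). Its cofactor Proz had 127 to 174 with the vector and 162 to 176 without it.

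Fgl1, a secreted relative of fibrinogen, had 534, 375 and 260 with the vector and 214, 156 and 202 without it (0.98 ± 0.29, adjusted p = 0.148 in limma), with LV replicate 1 the highest and LV replicate 3 the lowest, as in the fibrinogen chains. F8 and Vwf, made mainly by endothelial cells, were at 1 to 3 in every library. F3, tissue factor, is not among the genes listed. Clu, clusterin, which binds terminal complexes, had 726 to 1132 with the vector and 694 to 899 without it. C1qa, a macrophage-derived chain of C1q, had 20, 38 and 27 with the vector and 44, 31 and 57 without it (-0.62 ± 0.31, limma adjusted p = 0.332). It is itself 1 of the 10 measured Kupffer cell markers, whose sums, given above, overlapped between the groups. Of these 10 markers, 8 had a negative and 2 a positive fold change, with a median of -0.57, and 0 were called. The part of those cells in the values of C1qa was not tested.

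Signalling genes of the acute phase included larger differences. Of 23 listed receptors, transducers and liver factors 21 were measured, and 6 rose and 0 fell in limma, among them Stat3, Irf1, Nfkb1, Jak2 and Osmr. At an unadjusted p under 0.05, 13 were higher and 1 was lower, and the median fold change was 0.50. Over all genes 3.76% were called higher, 9.21% were higher and 10.3% lower at that unadjusted p, and the median was -0.07. Stat3, the transducer of interleukin-6, had 110, 87 and 70 with the vector and 33, 30 and 25 without it (1.55 ± 0.20, adjusted p = 0.0142). Its order among LV libraries, with replicate 1 highest and replicate 3 lowest, was that of the fibrinogen chains, Cfb and C3. Kng1, Mbl2 and Alb had this order too, and C2, C4b and Serping1 were highest in LV replicate 3. A relation between Stat3 and these genes was not tested. Irf1, an interferon-induced activator, had 92, 81 and 77 with the vector and 15 to 21 without it (2.18 ± 0.15, limma adjusted p = 0.00178). Nfkb1, an NF-kB subunit, rose by 1.04 ± 0.12 (limma adjusted p = 0.00987).

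Osmr, the oncostatin M receptor, and Jak2, a receptor-bound kinase, are low genes whose rounded values were 3 to 5 against 1 and 7 to 8 against 4 to 5 (adjusted p = 0.0106 and 0.0297). When single libraries were left out, the call of Irf1 held each time. That of Stat3 was lost without LV replicate 2 or any 1 untreated library (limma adjusted p up to 0.0897), that of Nfkb1 without LV replicate 1 or 2 (0.0602 and 0.0661), that of Osmr without LV replicate 2 or any 1 untreated library (up to 0.0717), and that of Jak2 without any 1 library other than untreated replicate 2 (up to 0.114). With LV replicate 3 and untreated replicate 2 both left out, the calls of Irf1, Stat3, Nfkb1 and Jak2 were lost (limma adjusted p = 0.0526, 0.0810, 0.0604 and 0.0574). That of Osmr held (0.0394). Il6ra, the interleukin-6 receptor, had 15 to 22 with the vector and 18 to 32 without it (-0.30 ± 0.25). Hnf4a, a liver transcription factor, had 216 to 227 against 184 to 193 (0.22 ± 0.07, adjusted p = 0.160). Cebpa, a C/EBP factor, was the 1 gene of this list that was lower at an unadjusted p under 0.05. It had 135, 130 and 162 with the vector and 190, 200 and 206 without it (-0.48 ± 0.11, limma adjusted p = 0.0796). Cebpb had 61 to 110 with the vector and 55 to 132 without it (-0.04 ± 0.40), and Cebpd is not among the genes listed. As a reference for size, the acute-phase gene Saa1 had 1264 to 3839 with the vector and 33 to 46 without it, while albumin (Alb) had 41700 to 54529 and 49014 to 69728.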

How the data were processed

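RNA of mouse liver was sequenced as 6 TruSeq RNA libraries on an Illumina HiSeq instrument, per the labels' protocols and the series' design. The submitters' processing notes name the build mm9; the aligner, annotation and counting method were not given in the sources used here. Values deposited by the authors were handled as a score, since their form points to rounding after scaling by library size and transcript length: the first percentile was 6.17 for the 10% of genes with the shortest transcripts and 1 for the 10% with the longest, but 7.80 and 9.20 once multiplied by length in kb. Depth is unknown, so no counting interval is given.

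The test covered the 8386 of 8390 genes that reached 1 in 3 or more samples. Group means of log2(value + 1) were compared in limma 3.58.1 under R 4.3.3 (intensity trend, two-sided, Benjamini-Hochberg). The fit was tested on simulated data. The named genes are all 38 members, called genes of the related lists and a set list of references. Others, such as Cebpa and Cebpb, were named after their values were seen. Members, lists and tests were chosen with earlier results of these data known. Alternatives left out libraries, the filter or the trend, required a mean of 5, used a pseudocount of 0.1 or 2 other scalings, or added a replicate block; the covariate of 10 sex-biased genes was added after seeing the data. Some genes of the related lists are not reported here.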

Additional observations from a re-analysis of the deposited data

How the results depend on the processing

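Of the 38 genes, 24 kept their direction under all 15 alternatives run and 3 passed the threshold under at least 1 (Fga, Fgb and C2). The members called higher, 0 in the reported fit, were 2 with a mean of at least 5, 2 without the intensity trend, 2 with the male-biased gene score as covariate, 1 without LV replicate 3 and untreated replicate 2 together, and 0 to 2 with single libraries left out (2 without LV replicate 3). None was called lower under any alternative run. Over all genes, 315 higher calls ranged from 119 to 313 and 73 lower calls from 10 to 116 with single libraries left out (both lowest without LV replicate 2 and highest without LV replicate 3); lower calls were 136 without both libraries and 116 with the covariate. Related genes called higher, 7 in the reported fit, were 12 with median of ratios scaling, 4 without both libraries and 2 to 7 with single libraries left out. Those called lower were 2 with a mean of at least 5, 2 with median of ratios scaling (Vsig4 and Colec11 both times), and 0 to 2 with single libraries left out (Cebpa and Colec11 without LV replicate 3); these genes were named after their values were seen. With the replicate block, calls were 145 higher and 11 lower over all genes, 0 in the set and 4 among related genes. Deviations of same-numbered libraries from their group means correlated at 0.278, -0.47 and -0.337, and those of LV replicate 3 and untreated replicate 2 at 0.612. Deviations within a group depend on each other, so these values cannot decide whether replicate numbers pair the samples. Directions turned for 14 of the 38 genes. With quantile normalization F2 was -0.032, F12 -0.046 and Plg -0.067, and with median of ratios scaling Serpind1 was 0.022. Without both libraries F2 was -0.0057, F9 -0.031, F12 -0.032 and Plg -0.052, and with the covariate C9 was 0.013. With single libraries left out, the log2 fold change ranged from -0.032 to 0.083 for F2, -0.064 to 0.15 for F9, -0.33 to 0.070 for F11, -0.020 to 0.041 for F12, -0.033 to 0.057 for Plg, -0.092 to 0.025 for Serpind1, -0.040 to 0.23 for Masp1, -0.0073 to 0.18 for Mbl1, -0.26 to 0.045 for Mbl2, -2.32 to 0.69 for C6, -0.55 to 0.089 for C8a, -0.40 to 0.10 for C8b, -0.93 to 0.51 for C9 and -0.021 to 0.12 for Cfi. The cause of these changes was not tested, beyond the fewer samples or genes that an alternative holds. The unknown depth and the rounding limit what can be said of low genes such as C6, F8 and Vwf.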
